A study of Homo sapiens with 12 samples.

Results

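The genes described here are the regulators of the G1 phase named CDKN1B, CDKN2A, CDKN2C, CCND2, CCND3, CDK4, CDK6, RB1 and E2F1, 9 genes in all. Their probe sets were taken as every probe set of the array that the platform annotation assigned to a single symbol among these. This gave 22 probe sets for 8 genes, out of 54675 on the array and 41091 with a single symbol, and CDKN2C was not analysed here. CDK6 had 7 probe sets, CCND2 had 4, CDKN2A had 3, CCND3, RB1 and E2F1 had 2 each, and CDKN1B and CDK4 had 1 each.

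Total RNA from the human lymphoma lines Pfeiffer and OCI-Ly7 was measured on 12 Affymetrix U133 Plus 2.0 arrays, 3 in each of 4 groups. These were Pfeiffer cells with a BCL6 siRNA, Pfeiffer cells with a non-target control, OCI-Ly7 cells with a BCL6 siRNA and OCI-Ly7 cells with a non-target control, all taken 48 h after a transient transfection in IMDM with fetal bovine serum. Both lines derive from diffuse large B-cell lymphoma of the germinal centre B-cell kind, where the transcriptional repressor BCL6 is active, and each is a single line. The titles of the Pfeiffer control arrays read NTshRNA while their descriptions read siRNA, which leaves the type of the Pfeiffer control uncertain. The labels do not state whether the arrays of a group come from different cultures, so p-values here reflect array-to-array spread that may be only technical.

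Passage through G1 is driven by D-type cyclins, among them CCND2 and CCND3, which bind and activate the kinases CDK4 and CDK6. These kinases phosphorylate RB1, the retinoblastoma protein, which then releases E2F transcription factors such as E2F1, and E2F factors switch on genes of DNA replication. The INK4 inhibitors, which include the p16 product of CDKN2A, block CDK4 and CDK6, while CDKN1B encodes p27, which binds cyclin and CDK complexes, chiefly those of CDK2. In germinal centre B cells CCND3 is the D-type cyclin known to support division, and CDKN1B and CCND2 are described as genes that BCL6 represses.

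Values are log2(signal + 16) of the authors' scaled signals, and changes are BCL6 siRNA minus control on that scale unless a fold is named. The +16 understates changes of dim probe sets. Probe sets in the upper 0.5 of all by the brighter line (a level of at least 7.24) were tested with limma over 20546 probe sets, with an adjusted p (Benjamini-Hochberg) under 0.05 as the threshold. Of the 22 probe sets 15 passed this filter, from 7 genes. The 7 that did not were all 4 of CCND2 and 1 each of CDKN2A, CCND3 and CDK6. With 3 arrays against 3, the exact permutation test of a single probe set cannot go below p = 0.1, two-sided.

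BCL6 itself was measured by 3 probe sets, of which 3 fell in Pfeiffer and 2 in OCI-Ly7. The brightest, 203140_at, read 13.11, 13.04 and 12.75 with siRNA against 13.86, 13.92 and 14.01 with control in Pfeiffer, and 13.13, 13.10 and 13.15 against 13.50, 13.57 and 13.59 in OCI-Ly7. The siRNA left 51.3% of its signal in Pfeiffer (limma, adjusted p = 8.41e-07) and 74.6% in OCI-Ly7 (limma, adjusted p = 0.0103). For 215990_s_at 40.9% was left in Pfeiffer (limma, adjusted p = 1.01e-07) and 71.3% in OCI-Ly7 (limma, adjusted p = 0.00732). For 228758_at 51% was left in Pfeiffer (limma, adjusted p = 2.13e-06) and 89.2% in OCI-Ly7, where it did not pass (-0.17, limma, adjusted p = 0.429). Every siRNA array lay below every control for all 3 probe sets in both lines. Without a trend both OCI-Ly7 calls were lost (adjusted p = 0.0832 for 203140_at and 0.0547 for 215990_s_at). The fall was larger in Pfeiffer for all 3, with differences of -0.54, -0.80 and -0.81 (limma, adjusted p = 0.00653, 0.000682 and 0.000738).

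Of the B cell markers, 5 of 5 with a probe set passed the filter, and their summed signal was 29300 to 33400 with siRNA against 44000 to 44500 with control in Pfeiffer, and 59300 to 60400 against 49500 to 51700 in OCI-Ly7. The part of this shift in the results was not tested. Of 6 T cell and 4 myeloid markers 0 passed the filter, and of 5 stromal markers 1 did (COL1A1). Total RNA does not tell fewer cells in a state from less RNA per cell. Pfeiffer siRNA replicate 3 had the highest log2 ratio of 3' to 5' signal for GAPDH among the Pfeiffer arrays. It was -0.027 against -0.134 to -0.094 on the others, a small gap. Values without this array are given beside calls of the genes described that it decides. The same ratio for ACTB was higher on every Pfeiffer array (0.278 to 0.388) than on any OCI-Ly7 array (0.109 to 0.201). The part of this in the baseline gaps between the lines was not tested.

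In Pfeiffer 8 of the 15 tested probe sets changed, 7 higher and 1 lower, a share of 53.3% against 12.4% of all probe sets tested. They belong to 4 genes: CDK6, CDKN1B and CDKN2A rose and RB1 fell, each by at least 1 probe set. Of the 8, 5 are of CDK6 and are not independent. The genes were chosen with earlier results of these data known, so the shares here and below are descriptions. In OCI-Ly7 2 of the 15 changed, both lower and both of CDK6, a share of 13.3% against 1.61% of all (0.92% higher and 0.691% lower). The median change over the 15 was 0.24 in Pfeiffer (0.005 over all tested probe sets) and -0.23 in OCI-Ly7 (-0.001 over all), but 6 of the 15 measure the same gene, CDK6, and are not independent. The change differed between the lines for 6 of the 15, or 40%, all toward higher in Pfeiffer, against 6.43% of all probe sets (2.99% higher and 3.44% lower). These 6 were 5 of CDK6 and the CDKN1B probe set.

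**Figure D1:**
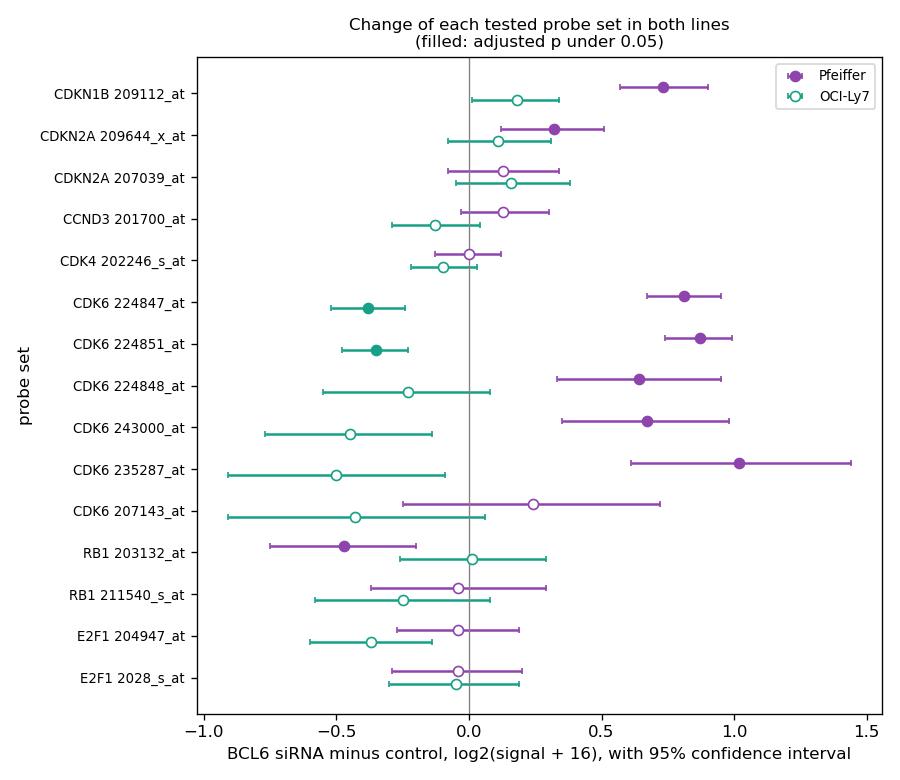
Change after BCL6 siRNA (x axis, log2(signal + 16), siRNA minus control, with 95% confidence interval from limma) of each of the 15 tested probe sets (y axis), in Pfeiffer (purple) and OCI-Ly7 (green). Filled points have an adjusted p under 0.05. The CDK6 probe sets lie right of 0 in Pfeiffer, up to 1.02, and left of 0 in OCI-Ly7, down to -0.5.

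CDK6, a catalytic partner of the D-type cyclins, was higher with BCL6 siRNA in Pfeiffer and lower in OCI-Ly7. Probe set 224851_at read 12.35, 12.31 and 12.20 on the Pfeiffer siRNA arrays, against 11.39, 11.44 and 11.43 on the Pfeiffer control arrays. The OCI-Ly7 readings were 11.37, 11.48 and 11.45 with siRNA, against 11.85, 11.76 and 11.75 with control. All siRNA arrays lay above all controls in Pfeiffer and below all controls in OCI-Ly7. In this probe set the OCI-Ly7 siRNA arrays came to the level of the Pfeiffer controls.

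For 224851_at the change was 0.87 ± 0.06 (SE) in Pfeiffer, a fold of 1.82 (95% confidence interval 1.67 to 1.99; limma, adjusted p = 1.68e-07). In OCI-Ly7 it was -0.35 ± 0.06, a fold of 0.783 (0.719 to 0.853; limma, adjusted p = 0.00679). The difference between these changes, tested as an interaction, was 1.22 ± 0.08 (limma, adjusted p = 7.22e-07).

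The brightest CDK6 probe set, 224847_at, ran the same way. It read 12.46, 12.32 and 12.36 with siRNA against 11.64, 11.62 and 11.46 with control in Pfeiffer. On the OCI-Ly7 arrays it was 11.29, 11.33 and 11.28 with siRNA against 11.66, 11.60 and 11.78 with control. The groups did not overlap in either line, and here the OCI-Ly7 siRNA arrays lay below all Pfeiffer controls. The changes were 0.81 ± 0.07 in Pfeiffer (limma, adjusted p = 1.23e-06) and -0.38 ± 0.07 in OCI-Ly7 (limma, adjusted p = 0.00848), and the difference was 1.18 ± 0.09 (limma, adjusted p = 2.88e-06). Both OCI-Ly7 calls missed the threshold in limma without a mean-variance trend, with adjusted p = 0.0515 for 224851_at and 0.0616 for 224847_at.

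Among the other CDK6 probe sets, 3 rose in Pfeiffer and did not pass in OCI-Ly7. Probe set 235287_at read 9.0, 8.84 and 8.64 with siRNA against 7.91, 7.88 and 7.61 with control in Pfeiffer, a change of 1.02 ± 0.19 (limma, adjusted p = 0.00259). In OCI-Ly7 it read 6.99, 7.64 and 7.54 with siRNA against 7.77, 7.81 and 8.08 with control, a change of -0.50 ± 0.19 (limma, adjusted p = 0.274). The arrays of the groups were apart in both lines, but the OCI-Ly7 siRNA arrays spread over more than the size of that change.

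Probe set 243000_at read 9.16, 9.25 and 8.85 with siRNA against 8.19, 8.47 and 8.60 with control in Pfeiffer (change 0.67 ± 0.15, limma, adjusted p = 0.00829). The OCI-Ly7 readings were 7.96, 7.86 and 7.84 with siRNA against 8.32, 8.25 and 8.44 with control (change -0.45 ± 0.15, limma, adjusted p = 0.175). Again no siRNA array overlapped a control in either line. The lines differed by 1.12 for 243000_at (limma, adjusted p = 0.00462) and by 1.52 for 235287_at (limma, adjusted p = 0.00347).

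Probe set 224848_at read 11.25, 11.14 and 11.22 with siRNA against 10.34, 10.60 and 10.75 with control in Pfeiffer, a change of 0.64 ± 0.15 (limma, adjusted p = 0.00992). On the OCI-Ly7 arrays it was 10.28, 10.64 and 10.98 with siRNA against 10.65, 11.04 and 10.91 with control, and the groups overlapped (change -0.23 ± 0.15, limma, adjusted p = 0.56). Its Pfeiffer call was lost without Pfeiffer control replicate 1 (0.53, limma, adjusted p = 0.0543), the lowest of the controls. Its difference between the lines, 0.88 (limma, adjusted p = 0.02), was lost without that array (0.76, adjusted p = 0.0546) and, in turn, with OCI-Ly7 control replicate 2 left out (0.79, adjusted p = 0.0541) and with no trend (adjusted p = 0.0763).

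The dimmest tested CDK6 probe set, 207143_at, passed in neither line, with changes of 0.24 ± 0.23 in Pfeiffer (limma, adjusted p = 0.581) and -0.43 ± 0.23 in OCI-Ly7 (limma, adjusted p = 0.471). Its arrays overlapped in both lines. Probe set 231198_at was under the filter and had group means of 6.46 with siRNA and 6.65 with control in Pfeiffer, and 6.27 with siRNA and 5.80 with control in OCI-Ly7. Its order was thus the reverse of the brighter probe sets, within SDs of 0.27 to 0.56. Without Pfeiffer siRNA replicate 3, the 5 CDK6 probe sets called in Pfeiffer kept their calls, with changes of 0.63 to 1.12.

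**Figure D2:**
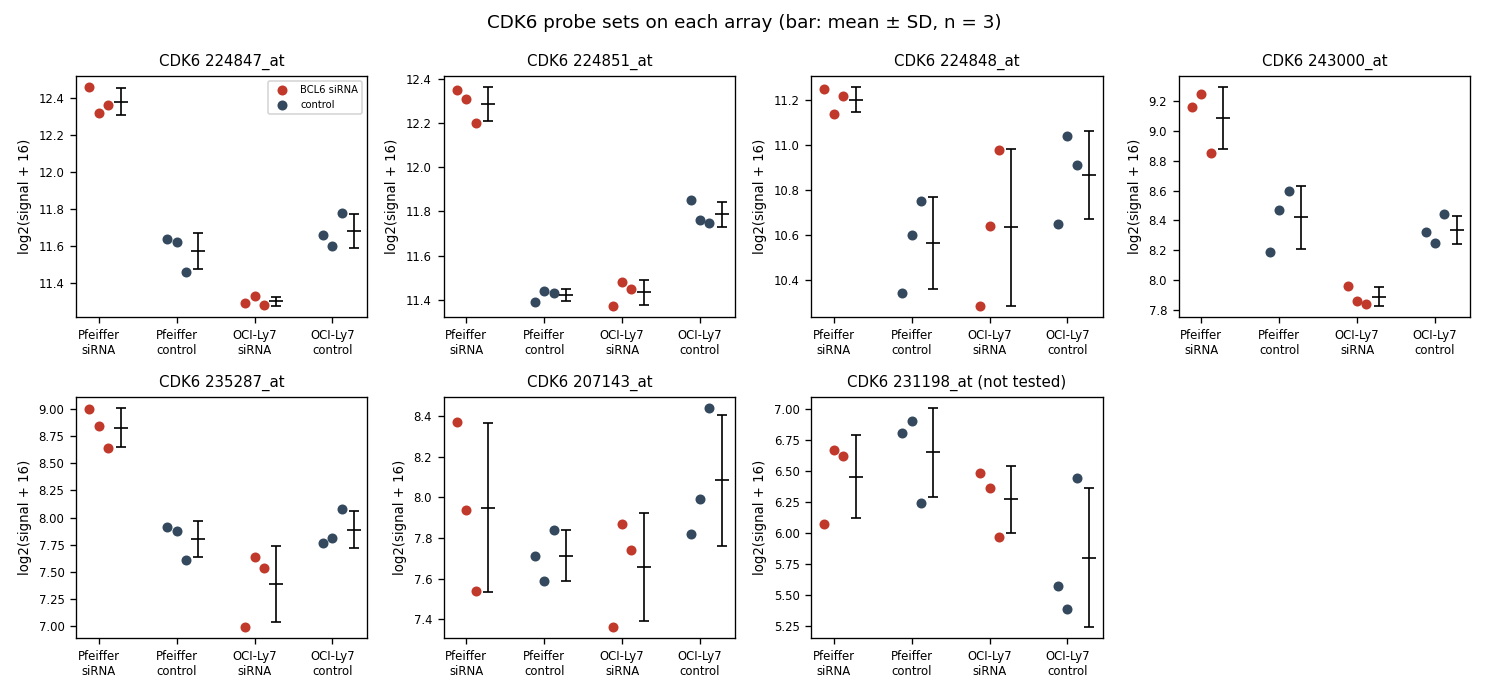
Level (y axis, log2(signal + 16), a scale of its own in each panel) of the 7 CDK6 probe sets on each array, by group (x axis), with BCL6 siRNA in red and control in blue-grey. Black bars are the mean ± SD of 3 arrays. In 224847_at, 224851_at, 243000_at and 235287_at the siRNA arrays sit above the controls in Pfeiffer and below them in OCI-Ly7.

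CDKN1B, which encodes the inhibitor p27, rose in Pfeiffer. Its only probe set, 209112_at, read 10.62, 10.69 and 10.54 with siRNA against 9.89, 9.95 and 9.81 with control. In OCI-Ly7 it read 13.12, 12.98 and 13.26 with siRNA against 13.06, 12.89 and 12.87 with control. The Pfeiffer groups were apart by more than the range within either, and those of OCI-Ly7 overlapped.

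The CDKN1B change of 0.73 ± 0.08 in Pfeiffer was a fold of 1.66 (95% confidence interval 1.48 to 1.86; limma, adjusted p = 1.75e-05). In OCI-Ly7 it was 0.18 ± 0.08, a fold of 1.13 (1.01 to 1.27; limma, adjusted p = 0.343). The lines differed by 0.56 ± 0.11 (limma, adjusted p = 0.00633). Without Pfeiffer siRNA replicate 3 the CDKN1B change in Pfeiffer was 0.77 (limma, adjusted p = 3.73e-05), and 6 of the 15 probe sets were called there, those of CDKN1B and 5 of CDK6. CDKN1B also had the widest gap between the lines at baseline among the tested probe sets of these genes. The Pfeiffer control mean was 9.88 ± 0.07 and the OCI-Ly7 control mean was 12.94 ± 0.10 (SD, n = 3 each), so that Pfeiffer had 0.12 times the OCI-Ly7 signal (95% confidence interval 0.107 to 0.135; limma, adjusted p = 3.26e-14). With siRNA, CDKN1B in Pfeiffer (10.61 ± 0.08) was still below the OCI-Ly7 controls.

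CDKN2A, whose products are p16 and ARF, was measured by 3 probe sets, and these arrays do not tell the products apart here. The brightest, 209644_x_at, carries the suffix of probe sets that can bind other transcripts too. It read 11.35, 11.64 and 11.74 with siRNA against 11.26, 11.36 and 11.16 with control in Pfeiffer. The OCI-Ly7 readings were 12.80, 12.58 and 12.70 with siRNA against 12.56, 12.49 and 12.69 with control. In Pfeiffer 1 siRNA array lay within the range of the controls, and in OCI-Ly7 the groups overlapped as well.

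The Pfeiffer change of 209644_x_at, 0.32 ± 0.09, passed narrowly (limma, adjusted p = 0.0346). It did not pass without Pfeiffer siRNA replicate 2 or 3 (0.28 and 0.24, adjusted p = 0.109 and 0.118), without Pfeiffer control replicate 1 or 3 (0.32 and 0.27, adjusted p = 0.0876 and 0.129), without the filter (adjusted p = 0.0656), with the line fitted alone (adjusted p = 0.0652) or without a trend (adjusted p = 0.104). In OCI-Ly7 its change was 0.11 ± 0.09 (limma, adjusted p = 0.685). The second probe set, 207039_at, did not pass in Pfeiffer (0.13 ± 0.10, limma, adjusted p = 0.464) or OCI-Ly7 (0.16 ± 0.10, limma, adjusted p = 0.55). At baseline both were lower in Pfeiffer, with 11.26 ± 0.10 in Pfeiffer controls and 12.58 ± 0.10 in OCI-Ly7 controls for 209644_x_at (SD, n = 3 each; limma, adjusted p = 3.35e-09), and 8.94 ± 0.10 and 9.83 ± 0.15 for 207039_at (limma, adjusted p = 8.47e-07). The untested 211156_at averaged 4.68 ± 0.24 with siRNA and 5.70 ± 1.24 with control in Pfeiffer, and 5.75 ± 1.26 with siRNA and 6.86 ± 0.38 with control in OCI-Ly7, and its arrays overlapped in both lines.

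**Figure D3:**
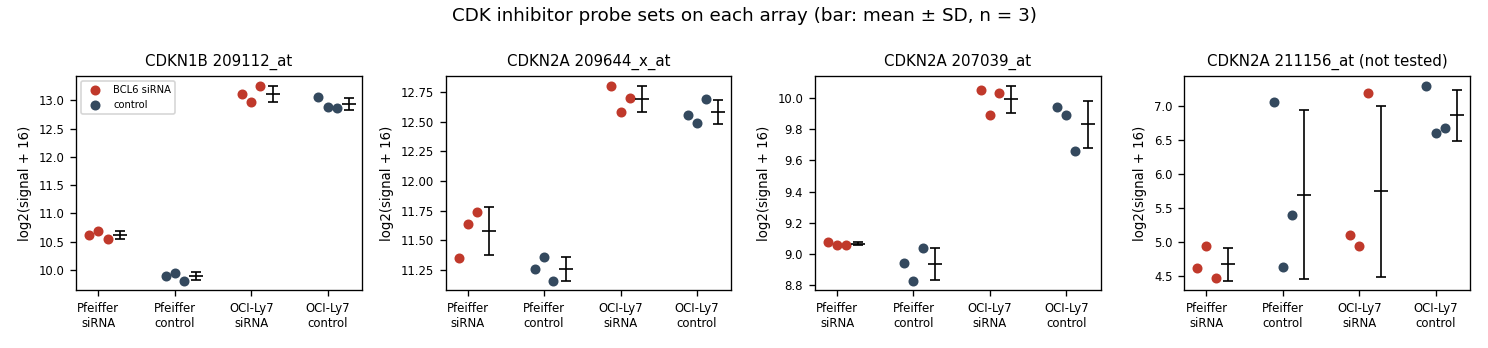
Level (y axis, log2(signal + 16), a scale of its own in each panel) of the probe sets of the CDK inhibitor genes CDKN1B and CDKN2A on each array, by group (x axis). Black bars are the mean ± SD of 3 arrays. CDKN1B sits near 10.61 with siRNA and 9.88 with control in Pfeiffer, and near 13 in both OCI-Ly7 groups.

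The promoters of CDKN1B and CDK6 are shown because both genes rose in Pfeiffer, and that of E2F1 because it holds an E2F motif. The sequences are RefSeq's on GRCh38.p14, from 250 bases before to 50 after a transcription start, 5′ to 3′ on the gene's strand. Capitals mark GGGCGG (the GC box, bound by Sp1) on either strand and, in E2F1, TTTGGCGC (an E2F site).
CDKN1B, chr12:12717118-12717417, plus strand: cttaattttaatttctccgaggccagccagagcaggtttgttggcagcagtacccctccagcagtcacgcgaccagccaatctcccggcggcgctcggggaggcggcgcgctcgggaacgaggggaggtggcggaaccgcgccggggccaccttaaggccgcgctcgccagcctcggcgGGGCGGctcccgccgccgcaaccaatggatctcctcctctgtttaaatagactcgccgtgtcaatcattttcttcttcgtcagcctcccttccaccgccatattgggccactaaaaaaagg
CDK6, upstream start, chr7:92836524-92836823, minus strand: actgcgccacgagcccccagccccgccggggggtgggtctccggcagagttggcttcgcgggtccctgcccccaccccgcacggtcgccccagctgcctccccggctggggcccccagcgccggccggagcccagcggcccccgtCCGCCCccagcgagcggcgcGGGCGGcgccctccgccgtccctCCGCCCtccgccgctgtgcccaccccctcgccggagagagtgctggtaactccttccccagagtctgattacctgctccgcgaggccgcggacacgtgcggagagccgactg
E2F1, chr20:33686336-33686635, minus strand: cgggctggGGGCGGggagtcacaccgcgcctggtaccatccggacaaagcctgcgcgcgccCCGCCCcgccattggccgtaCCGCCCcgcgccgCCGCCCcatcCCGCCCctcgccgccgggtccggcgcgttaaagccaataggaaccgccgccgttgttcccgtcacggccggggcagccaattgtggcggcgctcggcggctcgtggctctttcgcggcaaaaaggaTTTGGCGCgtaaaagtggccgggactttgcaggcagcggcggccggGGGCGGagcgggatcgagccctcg

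Each motif was searched on both strands of the 11 promoter windows held for 7 of these genes. The BCL6 site TTCCTAGAA was in 0 of the 11 windows and in 0.373% of all 35116 windows. The wider form TTCNNNGAA, which contains the BCL6 site and is also the STAT motif, was in 1 of the 11, for RB1, and in 7.66% of all. That window, chr13:48476200-48476499, was the only 1 held for RB1, with 38.3% G and C and 0 GC boxes. Any other start of RB1 was not searched, and whether this window holds its main start was not checked. The match and the 0 GC boxes thus describe this window only. The E2F site TTTGGCGC was in 1, that of E2F1, where it starts 20 bases before the start, and in 0.652% of all, and the E2F site TTTCCCGC was in 0 of the 11 and 1.63% of all. The FOXO site GTAAACA was in 1, for CCND3, and in 3.42% of all. GC boxes were in 7 of the 11 and in 45% of all windows. A match describes letters and not binding, and sites outside these windows were not looked at.

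CCND3, the D-type cyclin of germinal centre B cells, did not pass in either line. Probe set 201700_at read 10.94, 11.05 and 11.16 with siRNA against 11.04, 10.89 and 10.83 with control in Pfeiffer. On the OCI-Ly7 arrays it was 12.45, 12.61 and 12.52 with siRNA against 12.61, 12.78 and 12.57 with control. The groups overlapped in both lines, with changes of 0.13 ± 0.08 in Pfeiffer (95% confidence interval -0.03 to 0.30, limma, adjusted p = 0.318) and -0.13 ± 0.08 in OCI-Ly7 (-0.29 to 0.04, limma, adjusted p = 0.548).

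The CCND3 level itself differed between the lines, with 10.92 ± 0.11 in Pfeiffer controls and 12.65 ± 0.11 in OCI-Ly7 controls (SD, n = 3 each). Pfeiffer thus had 0.3 times the OCI-Ly7 signal (95% confidence interval 0.268 to 0.337, limma, adjusted p = 1.62e-11). The second CCND3 probe set, 1562028_at, was under the filter, and its Pfeiffer controls ranged from 4.37 to 6.74.

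CCND2, the D-type cyclin described as a BCL6 target, was dim on every array. Over its 4 probe sets and all 12 arrays the level ran between 4.18 and 7.28, which are signals of 2.11 and 139. Probe set 200951_s_at read 5.35, 5.58 and 5.45 with siRNA against 4.93, 5.11 and 5.26 with control in Pfeiffer, and 4.73, 4.82 and 4.24 against 4.27, 4.33 and 4.34 in OCI-Ly7. The Pfeiffer groups did not overlap and those of OCI-Ly7 did, on values near the pseudocount. Probe set 200953_s_at read 6.51, 6.94 and 6.80 with siRNA against 6.58, 6.04 and 6.08 with control in Pfeiffer, and 4.30, 5.08 and 5.50 against 5.63, 4.50 and 6.01 in OCI-Ly7. These overlapped in both lines.

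Of the remaining CCND2 probe sets, 231259_s_at averaged 6.25 ± 0.55 with siRNA and 6.06 ± 0.85 with control in Pfeiffer, and 5.89 ± 1.06 with siRNA and 6.79 ± 0.47 with control in OCI-Ly7. Probe set 200952_s_at averaged 4.55 ± 0.41 with siRNA and 4.68 ± 0.56 with control in Pfeiffer, and 5.02 ± 0.95 with siRNA and 4.23 ± 0.04 with control in OCI-Ly7 (SD, n = 3 each). For 200952_s_at all OCI-Ly7 siRNA arrays lay above all controls (4.36, 6.11 and 4.59 against 4.27, 4.23 and 4.18), again near the pseudocount. The 4 CCND2 probe sets gave no common direction in either line, with 200952_s_at at -0.13 in Pfeiffer where the others were above 0. A change of CCND2 could not be read at this signal. When all probe sets were tested with no filter, the adjusted p of the 4 was 0.607 to 0.942 in Pfeiffer and 0.61 to 0.871 in OCI-Ly7 (limma). In that run the Pfeiffer controls minus OCI-Ly7 controls gave 0.79 for 200951_s_at and 0.85 for 200953_s_at (limma, adjusted p = 0.0271 and 0.149). All Pfeiffer controls lay above all OCI-Ly7 controls for both. The controls overlapped for 200952_s_at (0.45) and 231259_s_at (-0.73), and all of these values are dim.

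CDK4, the close relative of CDK6, did not pass in either line. Its probe set 202246_s_at read 12.51, 12.48 and 12.67 with siRNA against 12.51, 12.57 and 12.58 with control in Pfeiffer. In OCI-Ly7 it read 12.46, 12.40 and 12.34 with siRNA against 12.46, 12.49 and 12.55 with control. The change was 0.00 ± 0.06 in Pfeiffer (95% confidence interval -0.13 to 0.12, limma, adjusted p = 0.989) and -0.10 ± 0.06 in OCI-Ly7 (-0.22 to 0.03, limma, adjusted p = 0.533). The OCI-Ly7 siRNA arrays all lay below the controls, the nearest by less than the rounding shown, and the Pfeiffer groups overlapped. The baseline did not pass either, at 12.55 ± 0.04 in Pfeiffer controls and 12.50 ± 0.05 in OCI-Ly7 controls (limma, adjusted p = 0.393).

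RB1, the substrate of both kinases, gave discordant probe sets. The brighter, 203132_at, read 11.59, 11.47 and 10.98 with siRNA against 11.70, 11.96 and 11.80 with control in Pfeiffer, a change of -0.47 ± 0.13 (limma, adjusted p = 0.026). Every siRNA array was below every control, and the lowest was siRNA replicate 3, which also had the highest 3' to 5' ratio for GAPDH in Pfeiffer. The call was lost without that array (-0.29, limma, adjusted p = 0.0744), without control replicate 2 (-0.41, adjusted p = 0.103), without control replicate 3 (-0.48, adjusted p = 0.0643) and without a trend (adjusted p = 0.0869). Whether the 3' to 5' ratio had a part in this call was not tested.

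In OCI-Ly7 203132_at read 12.20, 11.98 and 12.24 with siRNA against 12.27, 12.14 and 11.97 with control (change 0.01 ± 0.13, limma, adjusted p = 0.979). The difference between the lines, -0.49, did not pass (limma, adjusted p = 0.139). The other RB1 probe set, 211540_s_at, read 9.38, 9.14 and 8.77 with siRNA against 9.27, 9.27 and 8.86 with control in Pfeiffer, where the groups overlapped (change -0.04 ± 0.15, limma, adjusted p = 0.915). The OCI-Ly7 readings were 10.06, 9.98 and 9.66 against 10.23, 10.15 and 10.06 (change -0.25 ± 0.15, limma, adjusted p = 0.55).

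E2F1, the transcription factor that RB1 holds back, did not pass in either line. Probe set 204947_at read 8.96, 9.13 and 9.24 with siRNA against 9.01, 9.27 and 9.16 with control in Pfeiffer (change -0.04 ± 0.11, limma, adjusted p = 0.863). On the OCI-Ly7 arrays it was 9.79, 9.96 and 9.99 with siRNA against 10.13, 10.34 and 10.39 with control, with no overlap (change -0.37 ± 0.11, limma, adjusted p = 0.118). The second, 2028_s_at, did not share that shift. It changed by -0.05 ± 0.12 in OCI-Ly7 (limma, adjusted p = 0.909) and by -0.04 ± 0.12 in Pfeiffer (limma, adjusted p = 0.875), and its groups overlapped in both lines.

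**Figure D4:**
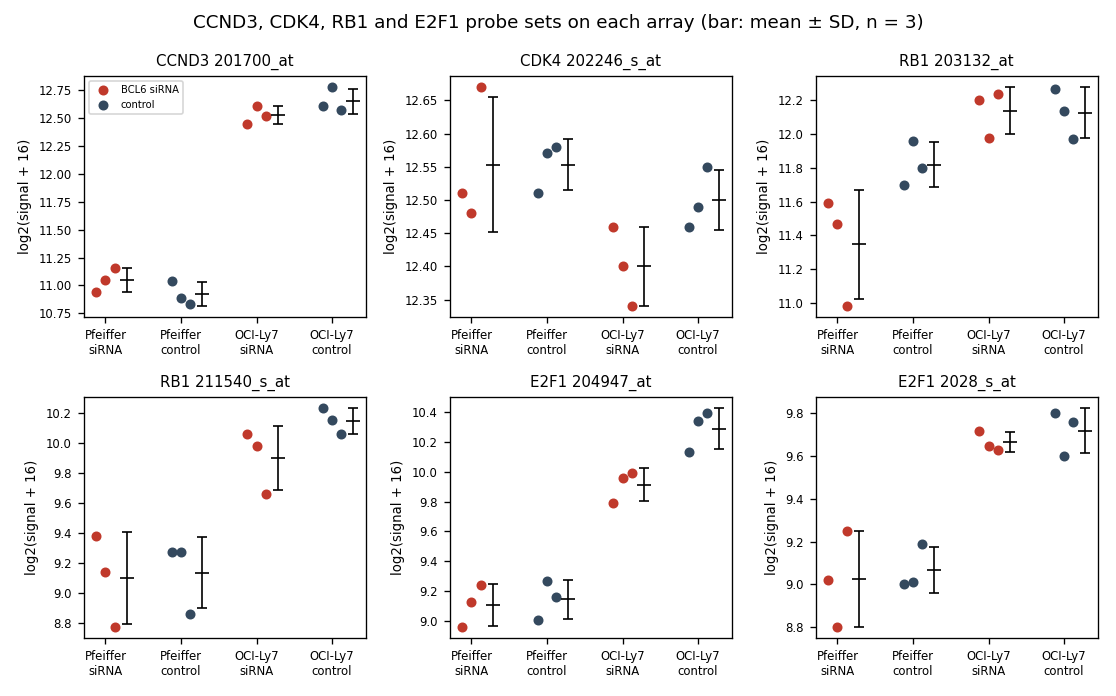
Level (y axis, log2(signal + 16), a scale of its own in each panel) of the tested CCND3, CDK4, RB1 and E2F1 probe sets on each array, by group (x axis). Black bars are the mean ± SD of 3 arrays. RB1 203132_at is lowest on Pfeiffer siRNA replicate 3, at 10.98, while the siRNA and control arrays of CDK4 overlap in Pfeiffer around 12.55.

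In OCI-Ly7 the siRNA arrays lay below all controls for 7 of the 15 tested probe sets and above all controls for 0, against 10.3% and 10.5% of all probe sets tested (20.8% either way). The 7 come from 4 genes: 4 of CDK6 and 1 each of CDK4, RB1 and E2F1. In Pfeiffer the siRNA arrays lay above all controls for 7 (14.5% of all probe sets) and below for 1 (14.8% of all, 29.3% either way). At baseline 9 of the 15 were lower in Pfeiffer controls than in OCI-Ly7 controls and 0 were higher, where 39.2% and 35.7% of all tested probe sets were (75% either way). The same number, 9, had all Pfeiffer controls below all OCI-Ly7 controls and 0 had them above, against 41% and 37.4% of all (78.5% either way). The 9 span 6 genes, and besides those above they are RB1 (9.13 ± 0.23 in Pfeiffer controls and 10.15 ± 0.09 in OCI-Ly7 controls for 211540_s_at), E2F1 (9.15 ± 0.13 and 10.29 ± 0.14 for 204947_at, and 9.07 ± 0.10 and 9.72 ± 0.10 for 2028_s_at) and CDK6 224851_at (11.42 ± 0.02 and 11.79 ± 0.06; SD, n = 3 each). The other RB1 probe set passed narrowly (-0.31, limma, adjusted p = 0.0428), a call lost when OCI-Ly7 siRNA replicate 1, OCI-Ly7 control replicate 1 or 2, or Pfeiffer control replicate 1 or 3 was left out (-0.31 to -0.24, adjusted p up to 0.156), with no filter (adjusted p = 0.0733) or without a trend (adjusted p = 0.0951).

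Other genes of the G1/S transition were taken from a fixed list of 30, each by its brightest probe set, and 27 were tested. In Pfeiffer 6 rose and 2 fell (median change 0.17), and in OCI-Ly7 limma called 0, with 2 at an unadjusted p under 0.05 (median change -0.03), and 1 lower with quantile normalization or 1 higher with OCI-Ly7 fitted alone. For comparison, 6.11% of all tested probe sets rose and 6.33% fell in Pfeiffer. Such shares, here and for the lists below, count every tested probe set, while the lists hold only the brightest of each gene. The comparison is thus not fully like for like. In OCI-Ly7 1.61% of all were called, and 2643 of 20546 had an unadjusted p under 0.05. CCNE2, a cyclin that activates CDK2, averaged 10.70 ± 0.14 with siRNA and 10.21 ± 0.14 with control in Pfeiffer (change 0.49, limma, adjusted p = 0.00114). E2F8, a repressive E2F factor, averaged 11.25 ± 0.06 and 10.68 ± 0.21 (0.57, adjusted p = 0.000994), and TFDP1, the partner that E2F factors need to bind DNA, 12.60 ± 0.07 and 12.20 ± 0.03 (0.40, adjusted p = 0.000764; SD, n = 3 each). E2F5, an E2F factor linked to repression, fell, with 11.08 ± 0.12 and 11.71 ± 0.07 (-0.63, adjusted p = 1.12e-05). The change of these 4 differed between the lines, by 0.52, 0.66, 0.39 and -0.62 (limma, adjusted p = 0.015, 0.00766, 0.0171 and 0.000682). Of the 27 genes 3 were called higher and 1 lower for this difference, against 2.99% and 3.44% of all tested probe sets.

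The other 4 called in Pfeiffer were less secure. CCNA2, the cyclin of S phase and G2, stood at 0.31, the INK4 inhibitor CDKN2D at 0.65, the activating E2F2 at 0.33 and the second partner TFDP2 at -0.17 (limma, adjusted p = 0.0137, 0.0342, 0.0154 and 0.043). The TFDP2 change was of like size in OCI-Ly7, at -0.19 (limma, adjusted p = 0.104), and was called there with quantile normalization (limma, adjusted p = 0.045). CCNA2 lost the call without Pfeiffer siRNA replicate 1 or control replicate 1 or 3 (adjusted p up to 0.0638), and E2F2 without siRNA replicate 3 or control replicate 2 (up to 0.0585), and both lost it without a trend. CDKN2D lost it without Pfeiffer siRNA replicate 2 or 3, Pfeiffer control replicate 1 or 2 or OCI-Ly7 control replicate 1 (up to 0.116), and TFDP2 without any of 11 arrays, the exception being Pfeiffer siRNA replicate 2 (up to 0.141). CDKN1A, the inhibitor p21, did not pass in either line, with changes of -0.10 ± 0.25 in Pfeiffer (limma, adjusted p = 0.863) and -0.03 ± 0.25 in OCI-Ly7 (limma, adjusted p = 0.976). At baseline it was the reverse of CDKN1B, with 8.93 ± 0.32 in Pfeiffer controls and 5.59 ± 0.17 in OCI-Ly7 controls (SD, n = 3 each). The OCI-Ly7 level was under the filter's 7.24, so CDKN1A was tested only through its Pfeiffer level. The baseline gap is thus given as levels only, and the OCI-Ly7 change was read on dim values.

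Of 19 tested targets of E2F in DNA replication, from a list of 20, 11 rose, 0 fell and 8 did not pass in Pfeiffer (median change 0.21), where 6.11% of all tested probe sets rose and 6.33% fell. In OCI-Ly7 limma called 0, with 1 at an unadjusted p under 0.05 (median change -0.01). There 1.61% of all were called, and 2643 of 20546 had an unadjusted p under 0.05. RRM2 and RRM1, the subunits of ribonucleotide reductase, changed by 0.56 ± 0.05 and 0.34 ± 0.05 in Pfeiffer (limma, adjusted p = 5.1e-06 and 0.000485), and POLA1, the catalytic subunit of DNA polymerase alpha, by 0.40 ± 0.08 (adjusted p = 0.00252). These 3 kept their calls in every alternative run. PCNA, the sliding clamp, changed by 0.21 ± 0.05 (adjusted p = 0.00881), a call lost without a trend (adjusted p = 0.0587). The 4 others with the lowest p were GINS2, CDC6, CHAF1A and CDC45, at 0.24, 0.23, 0.28 and 0.32 (adjusted p = 0.0118, 0.0184, 0.0198 and 0.0214). GINS2 lost the call without Pfeiffer control replicate 1 or 3, CDC6 without Pfeiffer siRNA replicate 1 or control replicate 3, and CHAF1A without siRNA replicate 1 or control replicate 2 or 3. CDC45 lost it without Pfeiffer siRNA replicate 3 (0.24) or control replicate 1 or 3 (adjusted p up to 0.0846). The count of 11 was 8 without Pfeiffer siRNA replicate 3, 6 without Pfeiffer control replicate 1, 5 without Pfeiffer control replicate 3, 7 with Pfeiffer fitted alone and 4 without a trend. The change differed between the lines for 4 of the 19, RRM1, RRM2, POLA1 and ORC1, all toward higher in Pfeiffer. Of all tested probe sets 6.43% differed so, 2.99% higher and 3.44% lower.

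Of 10 genes listed as regulators of CDKN1B or CCND2 transcription or of p27 stability, limma called 0 in either line. At an unadjusted p under 0.05 there were 0 in Pfeiffer and 3 in OCI-Ly7. The list is not complete, since SKP2 and CKS1B were counted with the other G1/S genes. Over all 20546 tested probe sets, 12.4% were called in Pfeiffer and 1.61% in OCI-Ly7. An unadjusted p under 0.05 was reached by 5169 of them in Pfeiffer and 2643 in OCI-Ly7. The 10 genes are too few to tell 0 calls from these shares. Without Pfeiffer siRNA replicate 3, 1 of the 10 was called lower in Pfeiffer. They include the FOXO factors, which activate CDKN1B, with changes for FOXO1 of -0.10 in Pfeiffer and 0.07 in OCI-Ly7 and for FOXO3 of -0.06 and 0.24 (limma, adjusted p = 0.411, 0.774, 0.665 and 0.0968). MYC, a repressor of CDKN1B, stood at -0.16 and 0.05 (adjusted p = 0.301 and 0.883).

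**Figure D5:**
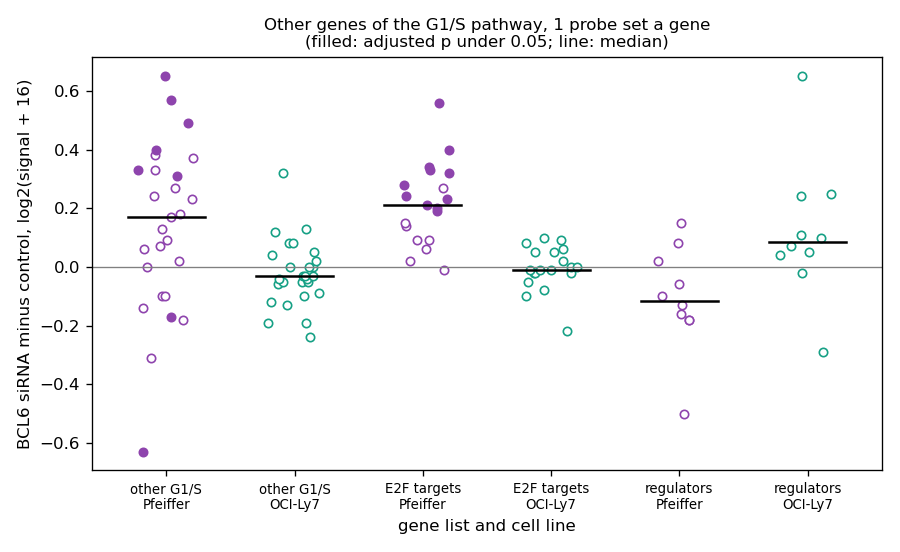
Change after BCL6 siRNA (y axis, log2(signal + 16), siRNA minus control) of the other G1/S genes, the E2F target genes and the regulators of CDKN1B and CCND2, 1 point a gene, in each line (x axis). Filled points have an adjusted p under 0.05 and the lines are medians. In Pfeiffer 6 G1/S genes and 11 E2F targets are filled above 0, and no point is filled in OCI-Ly7.

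The genes with the most similar pattern were sought among 10949 others by Pearson correlation over the 12 arrays, after each line's mean was taken off. These are descriptions, since the arrays share the siRNA contrast. CDKN1B was nearest to a probe set annotated to the microRNA gene MIR146A (r = 0.979) and to OGFRL1 (0.975). CDK6 was nearest to RFC5, a subunit of the clamp loader (0.977), and ZXDC (0.954). The nearest were CAPZA2 (0.959) and ZFAND6 (0.958) for RB1, GTF2E1 (0.937) and CLCN3 (0.923) for CDK4, and KAT8 (0.929) and TRIB3 (0.926) for CDKN2A. They were TRIM13 (0.894) and LRBA (0.882) for E2F1, and SCCPDH (0.88) and NUP98 (0.879) for CCND3.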

How the data were processed

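The authors deposited log2 values of 54675 probe sets on 12 arrays. Per the submitters' processing notes they came from MAS5 with the package affy, and versions are not given in the sources used here. On the linear scale the mean of each array, with 2% of values trimmed at either end, was 500 in signal units. Median signals were 71.3 to 85. Within groups, array correlations were 0.963 to 0.969. No batch was given. Arrays carry no read depth, and their number limits the precision.

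The platform annotation gave 41091 probe sets 1 symbol, 1801 several and 11721 none, and 62 were controls. Its gene identifiers were in the RefSeq table (GRCh38.p14) for 41037 probe sets, with 0 symbols changed. Values were turned into log2(signal + 16). limma (version 3.58.1, R 4.3.3) was fitted to 4 group means with a trend, with 8 residual and a median of 6.8 prior degrees of freedom. Tests were two-sided, SE is limma's moderated standard error, and the fit was tested on simulated data. Tried besides were pseudocounts of 1 and 64, quantile normalization, no filter or a stricter one, 1 probe set a gene, no trend, a replicate block, each line alone, and each array left out.

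Named are all probe sets of the genes described and of BCL6, list genes called in either line (up to 8 a list), and the 2 most correlated genes of each. The genes and lists were chosen with earlier results of these data known. Of the cell type markers, 1 B cell and 1 myeloid marker were not analysed here. Same-numbered siRNA and control arrays of a line did not deviate together (r = -0.038 to 0.059), so the numbers were not taken as pairs. Python 3.11.15, with numpy 2.4.6, pandas 2.3.3 and matplotlib 3.10.9, was used for sequences and figures.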

Additional observations from a re-analysis of the deposited data

Results flagged for a closer look

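The change after BCL6 siRNA differed between the lines, by a test of the difference itself (limma interaction, Pfeiffer change minus OCI-Ly7 change), for 6 of the 15 tested probe sets. The difference was 0.56 for CDKN1B 209112_at. For CDK6 it was 1.18 for 224847_at, 1.22 for 224851_at, 0.88 for 224848_at, 1.12 for 243000_at and 1.52 for 235287_at. BCL6 itself fell further in Pfeiffer, with 51.3% of its signal left by 203140_at against 74.6% in OCI-Ly7. The part of that gap in these differences was not tested.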

How the results depend on the processing

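No alternative turned a called change of these genes round. Over the 15 tested probe sets, 302 of 304 alternative values in OCI-Ly7, 292 of 304 in Pfeiffer and 286 of 289 for the difference stayed on their side of the threshold, counting a change of sign only where a value was called, and the other 2, 12 and 3 lost a call. These counts include the 13, 7 and 9 probe sets that were not called to begin with, and runs without an array of the other line. The 2 losses in OCI-Ly7 fell on its only 2 called probe sets. With 1 probe set a gene, which tests fewer by construction, calls over all probe sets were 1603 in Pfeiffer, 870 for the difference and 7867 at baseline, and those of the genes described were 4, 2 and 5, and 1 in OCI-Ly7. The main counts were 2556, 1321 and 15406, then 8, 6 and 9, and 2. In OCI-Ly7 331 probe sets were called, against 187 with no filter, 125 without a trend, 182 with the replicate block, and 121 to 413 with an array left out: 121 without siRNA replicate 1, 178 without siRNA replicate 3, 201, 204 and 204 without control replicates 1, 2 and 3. Without a trend 0 of these genes' probe sets were called in OCI-Ly7, where BCL6 stood at -0.42 (203140_at, adjusted p = 0.0832) and -0.49 (215990_s_at, adjusted p = 0.0547), and the difference was called for 862 probe sets. With the upper 0.25 tested, 8577 differed at baseline. Why the trend mattered was not tested. The replicate block changed no call among the tested probe sets of these genes (2, 8 and 6 called in OCI-Ly7, Pfeiffer and the difference), and of the list genes MCM6, MCM10 and TFDP2 lost their Pfeiffer calls under it. Of 19 list genes called in Pfeiffer, 7 kept the call in every alternative run and 12 lost it in at least 1. Dim probe sets, CCND2 above all, limit what can be read.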
